A study of Mus musculus with 8 samples.

Results

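The 9 genes described here, Lyz1, Defa24, Ang4, Mptx1, Mptx2, Itln1, Retnlb, Clca1 and Spink4, encode secreted products of Paneth and goblet cells, and were measured by sequencing of polyadenylated RNA in mouse bile and pancreatic ducts and in organoids grown from them. They were chosen by symbol from a table of 31228 genes, in which all 9 have a row. They were selected on their measured levels, which were high in bile duct against pancreatic duct and against organoids. Values of those contrasts are therefore given as descriptions with no test. All samples came from C57BL/6 mice, with no transgene or drug treatment named in the labels, and neither age nor sex is given in the sources used here. Extrahepatic bile duct (BD) epithelium and pancreatic duct (PD) epithelium were represented by 1 library each, made from dissected, minced and collagenase-digested duct that went directly into Trizol. BD organoids and PD organoids, grown from the respective duct, were represented by 3 libraries each. Organoids are 3-dimensional epithelial cultures. These were grown in Matrigel in a medium with EGF, R-Spondin-1, Noggin, FGF10 and nicotinamide, from which Wnt3A and Y27632 were withdrawn once hollow structures had formed, and were taken at passage 3 to 4. The labels describe no sorting of the epithelia and do not say whether the organoids of a group came from separate mice, so p-values between organoid groups measure only the spread between these cultures.

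Paneth cells sit at the base of small intestinal crypts and release antimicrobial proteins into the crypt lumen. Goblet cells release the mucus that covers the intestinal surface, together with small proteins that shape or protect it. Both arise from secretory progenitors that depend on the transcription factor Atoh1, and in organoid culture both are favoured or lost depending on Wnt and Notch signalling. Mucus-secreting cells also occur in the peribiliary glands of large bile ducts. In whole-tissue libraries fewer cells of a type and less RNA per cell cannot be told apart.

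Several of the 9 genes have near-identical neighbours, which matters for how reads were assigned. RefSeq's promoter table (GRCm38.p6) holds 5 of the 9, namely Lyz1, Ang4, Mptx1, Mptx2 and Itln1. The stretches of Lyz1 and its neighbour Lyz2 upstream of the start are shown because the genes share sequence but, as described below, differ in their ratio between the epithelia. Both lie on the minus strand and run from 150 to 51 bases before the start. Lyz1 is at chr10:117292919-117293018 and Lyz2 at chr10:117282323-117282422. Capitals mark the bases that differ at the same distance from the start.
Lyz1: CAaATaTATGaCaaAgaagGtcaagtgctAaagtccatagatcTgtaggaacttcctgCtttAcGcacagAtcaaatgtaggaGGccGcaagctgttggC
Lyz2: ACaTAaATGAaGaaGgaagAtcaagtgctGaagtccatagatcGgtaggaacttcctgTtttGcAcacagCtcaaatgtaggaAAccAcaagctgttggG
Within these 100 bases 79 were identical and 21 differed. The pentraxins Mptx1 and Mptx2 are shown because they are alike both before the start and in the transcript, while their levels, given below, differ. Mptx1 is given from 150 to 1 bases before its RefSeq start, at chr1:174330368-174330517 on the plus strand. Mptx2 is given from 171 to 22 bases before its RefSeq start, at chr1:173277778-173277927 on the minus strand, which ends where the annotated GENCODE transcript begins. Capitals mark TATAA on either strand.
Mptx1: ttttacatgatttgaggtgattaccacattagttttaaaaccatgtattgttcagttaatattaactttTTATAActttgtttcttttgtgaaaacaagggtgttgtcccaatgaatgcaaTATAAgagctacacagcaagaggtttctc
Mptx2: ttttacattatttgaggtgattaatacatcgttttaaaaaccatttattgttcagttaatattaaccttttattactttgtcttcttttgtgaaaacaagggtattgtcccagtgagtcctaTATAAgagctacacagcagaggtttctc
A gapped alignment matched 134 of 149 bases (89.9%). A set of short motifs was searched on both strands of the 250 bases before each start. TATAA was found in 3 of the 5 member promoters (Mptx1, Mptx2, Itln1) and in 23.5% of 27025 promoters. TTTATNG, the core bound by CDX factors, was found in 2 of the 5 (Mptx2, Itln1) against 10.2% of promoters. The TCF/LEF motif ATCAAAG was in 0 of the 5 against 3.23%, and TTCNNNNGAA, the spacing read by STAT6, was in 0 of the 5 against 5.87%. The CDX motif in the Itln1 promoter does not overlap its TATAA match. A match describes letters in this window only.

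Transcripts were compared as well, since stretches held in common between genes can be assigned to either. Annotated transcripts of Lyz1 and Lyz2 were 95.96% identical, those of Mptx1 and Mptx2 92.4%, and those of Defa24 and Defa30 98.2%. Of all stretches of 50 bases, 28.1% of those in Defa24 also occurred in transcripts of other genes, 16.1% in Lyz1, 17.9% in Mptx1, 18.0% in Mptx2, 4.70% in Ang4 and 1.01% in Itln1. For Retnlb, Clca1 and Spink4 the share was 0%. At 100 bases it was 2.06% for Lyz1, 3.29% for Mptx1, 3.31% for Mptx2 and 0% for the other 6. How the authors treated reads that fit several genes, and the read length, are not given in the sources used here. Values of Lyz1, Defa24, Mptx1 and Mptx2 therefore carry an uncertainty that Retnlb, Clca1 and Spink4 do not.

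Levels are FPKM, that is sequenced fragments normalized for exon length and sequencing depth, and are printed as deposited unless called scaled. The values imply 12876470 to 20828217 reads or read pairs per library. Read numbers given for a gene were recovered from its FPKM and exon length, and intervals on them cover counting error only. As a check of the labels, duct genes were present in every library: Krt19, a duct keratin, stood at 432 FPKM in BD epithelium, 83.8 in PD epithelium and 699 to 2097 in organoids. The epithelia also held RNA of other cells. The 14 listed acinar genes, mostly pancreatic digestive enzymes, summed to 20763 FPKM in BD epithelium and 43023 in PD epithelium, against 2.30 to 9.17 in organoids. The 7 fibroblast genes summed to 1284 and 1419 FPKM in the epithelia, against 0.570 to 3.51 in organoids.

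As a group, the 9 genes were abundant in BD epithelium, scarce in PD epithelium, and, Spink4 aside, nearly undetected in culture. They summed to 1249 FPKM in BD epithelium, which is 0.309% of that library's summed FPKM, and to 24.2 FPKM (0.00620%) in PD epithelium. In organoids the sum lay between 14.2 and 97.7 FPKM, of which Spink4 made up 94.6% to 99.99%. Without Spink4, the other 8 genes together had 19392 reads in BD epithelium and 304 in PD epithelium. The same 8 genes had 21, 6 and 47 reads in BD organoids 1, 2 and 3, and 5, 1 and 1 in PD organoids 1, 2 and 3. All 9 genes had reads in BD epithelium and 7 had in PD epithelium, against 3, 3 and 4 in the BD organoids and 2 in each PD organoid.

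**Figure D1:**
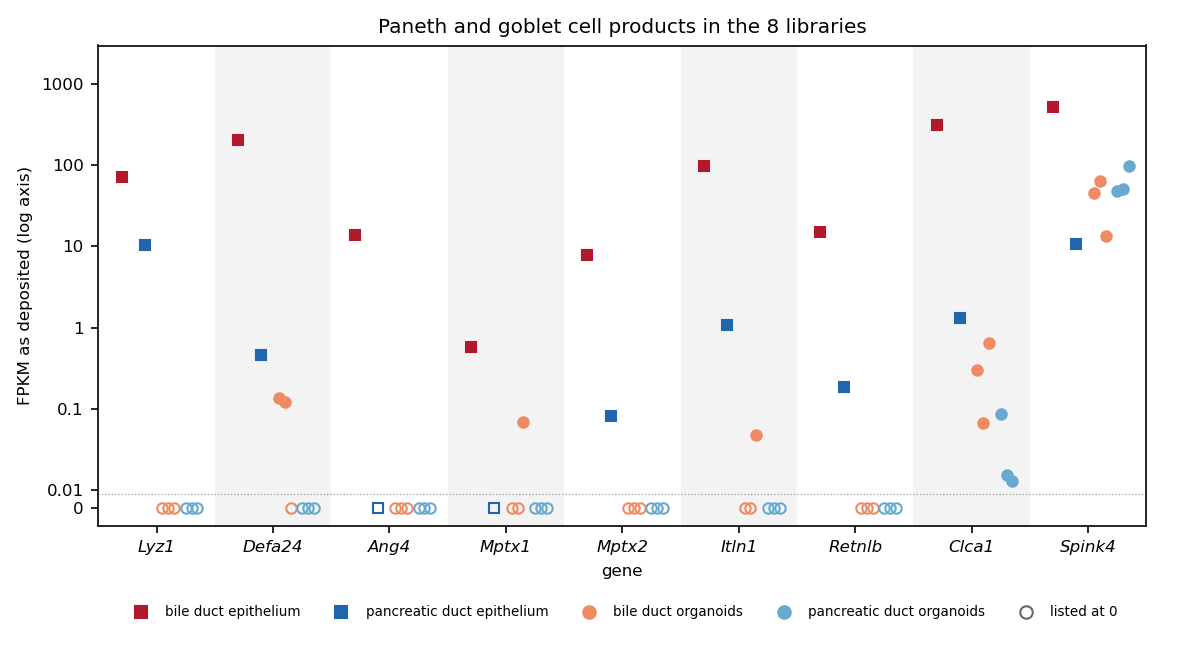
Level of each of the 9 genes in each of the 8 libraries, as deposited FPKM on a log axis. Squares are epithelia, circles are organoids, and open symbols mark values listed at 0. Clca1, Spink4 and Defa24 stand highest in BD epithelium, and Spink4 alone is above 1 FPKM in all 6 organoids (13.4 to 97.7).

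Lysozyme 1, encoded by Lyz1 (ENSMUSG00000069515, chr10:117287797-117292868, minus strand, 4 exons), cleaves bacterial cell walls and is the lysozyme of Paneth cells. Lyz1 stood at 71.3 FPKM (1160 reads) in BD epithelium, 10.4 FPKM (203 reads) in PD epithelium and 0 in all 6 organoids. It was thus the member least depleted in PD epithelium, where its level was 14.6% of that in BD epithelium. The ratio was 6.86, with an exact 95% counting interval of 5.90 to 8.0. Against a floor of 3 reads over the 3 cultures of a group, Lyz1 was at least 1687-fold higher in BD epithelium than in BD organoids. PD epithelium was at least 236-fold higher than its organoids. Lyz2, the lysozyme of macrophages and other myeloid cells, differed much less between the epithelia. Lyz2 stood at 301 FPKM in BD epithelium and 265 in PD epithelium, a ratio of 1.13 (1.09 to 1.18), and at 0 to 0.839 in organoids. Lyz1 was therefore 23.7% of Lyz2 in BD epithelium and 3.92% in PD epithelium. Of the 10 listed macrophage genes, 9 were at least 2-fold lower and 1, Cd14, was higher in the organoids of either duct than in its epithelium. C1qa, a complement subunit made by macrophages, was at 110 FPKM in BD epithelium, 77.1 in PD epithelium and 0 to 0.187 in organoids. The 10 genes summed to 767 FPKM in BD epithelium, 583 in PD epithelium and 170 to 449 in organoids, where Cd14, with 167 to 442 FPKM against 55.8 in BD epithelium, made up most of the sum and 1 to 6 of the 10 were at 0. Their part in the Lyz1 levels was not tested.

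Defa24 (ENSMUSG00000064213, chr8:21734494-21735471, plus strand, 2 exons) encodes an alpha-defensin, a membrane-damaging peptide of Paneth cell granules. Defa24 stood at 207 FPKM (1119 reads) in BD epithelium and 0.463 FPKM (3 reads) in PD epithelium. BD organoids 1 and 2 had 1 read each, and organoid 3 and all 3 PD organoids had 0. The epithelia differed 448-fold, with an interval of 153 to 2174 that reflects the 3 reads on the lower side. Its near-copy Defa30 had the same order at a lower level, with 38.8 FPKM (199 reads), 0.163 FPKM (1 read) and 0 in all 6 organoids. Defa17 had 7.24 FPKM in BD epithelium and 0 in the other 7 libraries. Because these transcripts are so alike, part of the Defa30 and Defa17 signal could be Defa24 reads or the reverse, and the 3 genes do not count as separate observations.

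Ang4 (ENSMUSG00000060615, chr14:51763878-51773590, minus strand, 2 exons) encodes an angiogenin-family ribonuclease with bactericidal activity. Ang4 stood at 13.7 FPKM (125 reads) in BD epithelium and at 0 in the other 7 libraries. Against the floor of 3 reads it was at least 50.01-fold higher than in PD epithelium, at least 182-fold higher than in BD organoids and at least 174-fold higher than in PD organoids. Its relative Ang, a ribonuclease with a broad tissue distribution, was at 5.61 FPKM in BD epithelium and 3.20 in PD epithelium.

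Mptx1 and Mptx2 are mucosal pentraxins, relatives of C-reactive protein, and Mptx2 is known as a Paneth cell product. Mptx2 (ENSMUSG00000079180, chr1:173274382-173277777, minus strand, 2 exons) stood at 7.82 FPKM (80 reads) in BD epithelium, 0.0815 FPKM (1 read) in PD epithelium and 0 in all 6 organoids. The epithelial ratio was 96.03, but with a single read on the lower side its interval ran from 16.7 to 3840. Mptx1 (ENSMUSG00000026531, chr1:174330518-174332873, plus strand, 2 exons) was the weakest member. Mptx1 had 6 reads (0.583 FPKM) in BD epithelium, 0 in PD epithelium, 1 read in BD organoid 3 and 0 in the other 5 organoids. With transcripts this alike, and Mptx1 at 7.45% of Mptx2, the 6 reads may stem from Mptx2, and no difference in Mptx1 between organoids was detectable at this depth. The liver pentraxin gene Crp had another pattern, with 9.09 FPKM in BD epithelium, 7.18 in PD epithelium and 1.99 to 8.67 in organoids.

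Itln1 (ENSMUSG00000038209, chr1:171518122-171535294, minus strand, 8 exons) encodes intelectin-1, a lectin that binds microbial sugars and is made by both Paneth and goblet cells. Itln1 stood at 99.4 FPKM (1460 reads) in BD epithelium, 1.08 FPKM (19 reads) in PD epithelium, 1 read in BD organoid 3 and 0 in the other 5 organoids. The epithelia differed 92.2-fold (58.8 to 154). PD epithelium was at least 22.06-fold higher than its organoids.

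Of the goblet cell products, Retnlb (ENSMUSG00000022650, chr16:48816856-48818891, plus strand, 4 exons) encodes resistin-like beta, a cysteine-rich protein of goblet cells that is induced by type 2 cytokines. Retnlb stood at 15.0 FPKM (134 reads) in BD epithelium, 0.186 FPKM (2 reads) in PD epithelium and 0 in all 6 organoids. The epithelial ratio was 80.4 (21.8 to 671). Its relative Retnla, made by macrophages and adipose tissue, differed far less between the epithelia, at 57.5 and 23.7 FPKM, and was also at 0 in all 6 organoids.

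Clca1 (ENSMUSG00000028255, chr3:145003817-145032776, minus strand, 14 exons) encodes a secreted metalloprotease that processes intestinal mucus, and it carried the most reads of any member. Clca1 stood at 315 FPKM (15308 reads) in BD epithelium and 1.30 FPKM (76 reads) in PD epithelium, a ratio of 242 (193 to 307). It was still detected in every organoid, at 0.297, 0.0662 and 0.648 FPKM in BD organoids 1 to 3 and 0.0859, 0.0150 and 0.0127 FPKM in PD organoids 1 to 3. These are 20, 5 and 45 reads against 5, 1 and 1, so the organoid groups overlapped at 5 reads. BD epithelium exceeded the pooled BD organoids 954-fold (755 to 1225), and PD epithelium exceeded its pooled organoids 37.8-fold (17.5 to 97.2). Both pools lean on 1 culture, with 45 of 70 reads from BD organoid 3 and 5 of 7 from PD organoid 1.

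Spink4 (ENSMUSG00000028415, chr4:40920052-40931395, plus strand, 4 exons) encodes a small secreted Kazal-type protease inhibitor of goblet cells and was the member with the highest level. It stood at 519 FPKM (3188 reads) in BD epithelium, where it ranked 70 among all genes, and at 10.7 FPKM (79 reads, rank 4563) in PD epithelium. The ratio was 48.4 (38.7 to 61.3). BD organoids 1 to 3 had 45.2, 63.8 and 13.4 FPKM, and PD organoids 1 to 3 had 47.9, 51.5 and 97.7 FPKM. All 6 cultures therefore lay below BD epithelium and, as deposited, above PD epithelium. On the scaled values BD organoid 3 lay just below PD epithelium, at 12.4 against 12.6 scaled FPKM. Among the organoids the rank of Spink4 ran from 496 in PD organoid 3 to 4466 in BD organoid 3. PD organoids as a pool stood at 638% of PD epithelium, whereas BD epithelium exceeded the pooled BD organoids 12.5-fold.

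Differences between libraries were also expressed as log2(scaled FPKM + 1), where a difference of 1 is 2-fold for well-expressed genes and understates the change of weak ones. Of the 9 genes, 8 reached the minimum of 1 scaled FPKM in bile or PD epithelium. All 8 reached it in bile duct, and Lyz1, Itln1, Clca1 and Spink4 reached it in PD epithelium too. All 8 were at least 2-fold higher in bile duct. Among all 15536 genes past that minimum, 1398 (9.0%) were. Since the genes were chosen on this contrast, their count is a description. Their log2 differences were 7.28 for Defa24, 7.16 for Clca1, 5.67 for Itln1, 5.46 for Spink4, 4.06 for Ang4, 3.90 for Retnlb, 3.19 for Mptx2, 2.65 for Lyz1 and 0.74 for Mptx1, which stayed under the minimum. The median was 4.06, against -0.04 for all genes tested. The added 1 compresses these values and sets part of their order. With 0.1 added instead, Ang4 differed by 7.31, Mptx2 by 5.54 and Mptx1 by 2.94, and Lyz1, at 2.74, was the least different of the 9. From BD epithelium to its organoids the same 8 were lower in all 3 cultures, against 26.3% of 15422 genes (12.5% were higher), with a median log2 difference of -4.19 over the 9 members and -0.09 over all genes tested. From PD epithelium to its organoids, 4 members reached the minimum. Lyz1 (-3.72), Clca1 (-1.29) and Itln1 (-1.18) were lower (-6.94, -3.61 and -3.77 with 0.1 added), against 25.4% of 15207 genes, and Spink4 was higher (2.15 ± 0.51, SD, n = 3), against 15.0%. The 3 comparisons share libraries and are not independent of each other. Of the members, 4, Lyz1, Ang4, Mptx2 and Retnlb, reached 1 FPKM in BD epithelium and were at 0 in all 6 organoids, a pattern that 592 of 14239 genes (4.16%) shared.

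The comparison of BD organoids with PD organoids was not used to choose the genes and could be tested. It asks whether cultures from either duct differ once grown under the same conditions. Only Spink4 passed the filter of 1 scaled FPKM in 3 organoids. Its deposited mean was 40.8 ± 25.4 FPKM (SD, n = 3) in BD organoids and 65.7 ± 27.8 FPKM (SD, n = 3) in PD organoids. The log2 difference, bile duct minus pancreatic duct, was -0.85 with a standard error of 0.59, and limma gave an adjusted p of 1.00 (unadjusted p = 0.202). The exact two-sided permutation test over the 6 cultures gave p = 0.4, where 0.1 is the smallest value that 3 against 3 can give. The groups overlapped, and the SD of the log2 level was 1.16 among BD organoids and 0.51 among PD organoids. Single cultures moved the value by more than 1.5 times: the log2 difference was -0.19 without BD organoid 3 and -1.28 without BD organoid 2. Clca1 was tested by the exact permutation test alone. Its mean log2 level was 0.40 ± 0.31 in BD organoids and 0.05 ± 0.06 in PD organoids (SD, n = 3 each), with exact p = 0.2. The 3 BD organoids alone spanned 5 to 45 reads of Clca1. Across all 12094 genes that passed the filter, limma called 0 (0.00%) at an adjusted p under 0.05, 307 (2.54%) had an unadjusted p under 0.05, and in 817 (6.76%) the groups did not overlap. Without PD organoid 3 limma called 11 genes, 0 of them members, and without BD organoid 1 the unadjusted count was 1016.

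**Figure D2:**
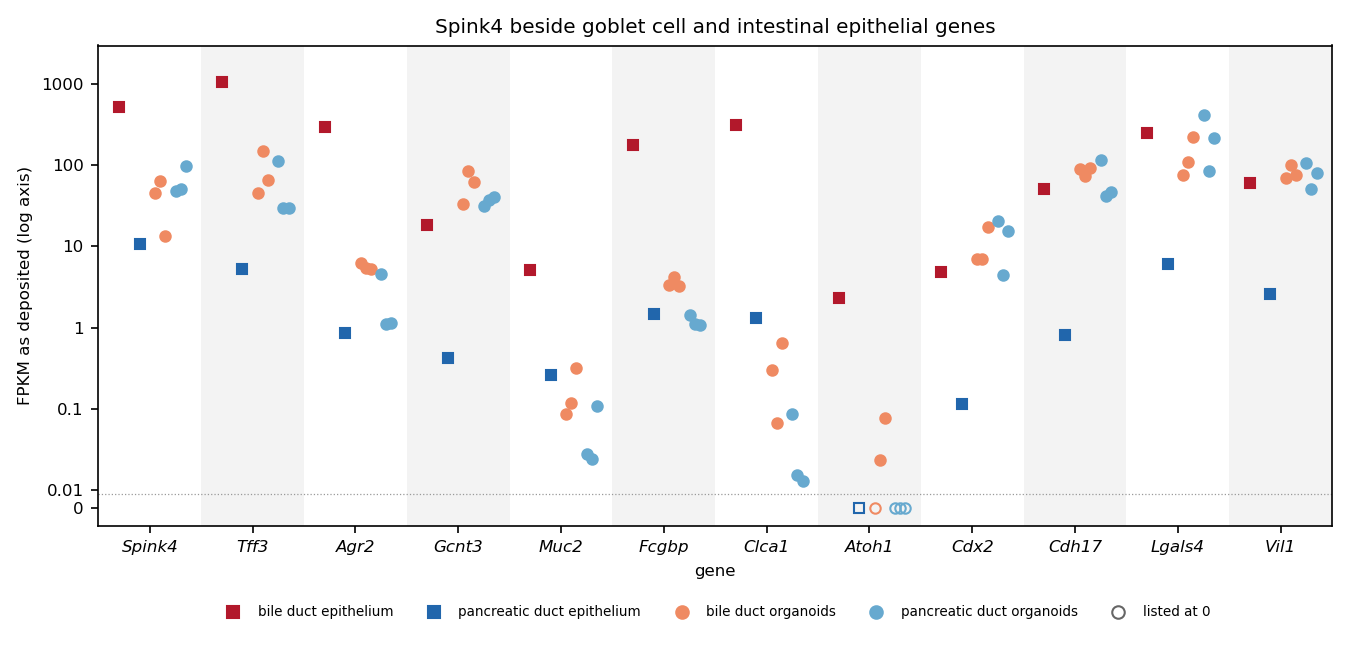
Spink4 beside goblet cell and intestinal genes in each library, as deposited FPKM on a log axis (squares epithelia, circles organoids, open symbols 0). Spink4 in the organoids lies between 13.4 and 97.7 FPKM, below its 519 in BD epithelium, and the organoid groups overlap.

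The wider families of these genes were given by 35 listed relatives, 27 of which are in the table. Of the 18 past the minimum, 9 were at least 2-fold higher in bile duct than in PD epithelium and 3 were at least 2-fold lower (4.69% of all genes were lower). The chloride channel accessory family, to which Clca1 belongs, split. Clca4b, an intestinal member, stood at 39.9 FPKM in bile duct and 0.302 in PD epithelium, and Clca4a at 13.7 and 0, both with at most 2 reads in any organoid. Clca3a1 went the other way, with 9.28 FPKM in bile duct and 31.3 in PD epithelium (log2 difference -1.69). Clca3b had 45.8 FPKM in BD epithelium and 0.0385 (2 reads) in PD epithelium. In culture Clca3b stood at 7.12, 0.0447 and 0.243 FPKM in BD organoids 1 to 3 and at 5.20, 6.61 and 0.843 FPKM in PD organoids 1 to 3. It was the relative that, like Spink4, was higher in PD organoids than in their epithelium (log2 difference 2.04), and the only one of the 27 past that threshold. The other relatives that reached 1 FPKM, deposited or scaled, were weaker. In BD and PD epithelium Retn had 8.46 and 3.85 FPKM, Retnlg 5.36 and 0.745, Spink2 0.493 and 3.20, Clca3a2 1.09 and 0.326, Apcs 1.28 and 0.800, Defa22 0.927 and 0, and Defa23 2.27 and 0. Of these, Retnlg, Defa22 and Defa23 were at least 2-fold higher in BD epithelium and Spink2 was lower. Spink1, the trypsin inhibitor of acinar cells, differed from Spink4 in direction, at 62.9 FPKM in bile duct and 150 in PD epithelium, as did the acinar sums given above.

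**Figure D3:**
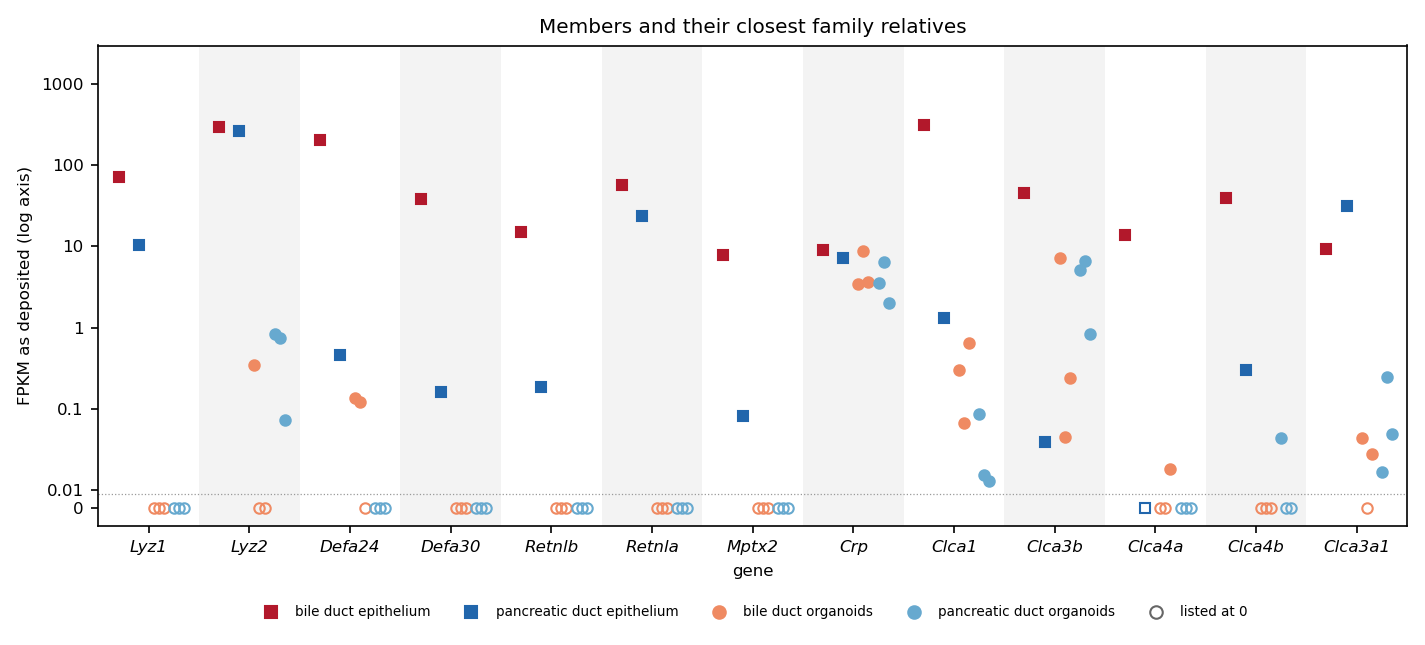
Members and relatives in each library, as deposited FPKM on a log axis (squares epithelia, circles organoids, open symbols 0). Lyz2 (301 and 265 FPKM) and Retnla (57.5 and 23.7) are well detected in both epithelia, whereas Defa24, Retnlb and Clca1 are near 1 FPKM or below in PD epithelium.

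Other products of Paneth cells were followed in a list of 18 genes present in the table. For these lists the shares of all genes given above are the background: 9.0% higher and 4.69% lower in BD epithelium than in PD epithelium, and 26.3% lower and 12.5% higher in BD organoids than in BD epithelium. Of the 15 listed genes past the minimum, 8 were at least 2-fold higher in BD than in PD epithelium and 0 were lower, with a median log2 difference of 0.88 over the 18. The list repeats 7 alpha-defensins counted above among the relatives, and 4 of the 8 higher genes were the near-copies Defa17, Defa22, Defa23 and Defa30. Some of them had levels of their own in culture. Cd24a, a surface glycoprotein of Paneth and progenitor cells, held 207 to 242 FPKM in the organoids, close to its 228 in BD epithelium. Mmp7, the matrix metalloproteinase that activates alpha-defensins in mouse Paneth cells, stood at 73.6 FPKM in BD epithelium, 1.27 in PD epithelium and 1.70 to 21.7 in organoids. Reg3b and Reg3g, antibacterial lectins, were at 479 and 173 FPKM in BD epithelium and at most 0.946 in any organoid. Reg3b was also at 302 FPKM in PD epithelium, and it is a known acinar stress gene. From BD epithelium to organoids 10 of 15 past the minimum were lower, the same 4 alpha-defensins among them, and 0 were higher.

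Of 17 other goblet cell genes, 15 passed the minimum, of which 11 were at least 2-fold higher in BD epithelium and 0 lower, with a median log2 difference of 1.78 over the 17. From BD epithelium to organoids 12 of 15 were lower and 1 was higher. Tff3, a trefoil peptide of mucus, stood at 1071 FPKM in BD epithelium and 5.25 in PD epithelium. It had 45.1, 148 and 65.8 FPKM in BD organoids 1 to 3 and 112, 29.5 and 29.8 FPKM in PD organoids 1 to 3, so that, like Spink4, it lay below one epithelium and above the other. Agr2, the disulphide isomerase needed for mucin folding, had 295 FPKM in BD epithelium and 0.852 in PD epithelium. It had 5.35 to 6.26 FPKM in BD organoids and 1.10 to 4.58 in PD organoids. Zg16 and Klk1 are listed as goblet genes but are also abundant secretory products of acinar cells. Zg16 stood at 446 and 636 FPKM and Klk1 at 323 and 561 FPKM in bile and PD epithelium, beside the acinar sums of 20763 and 43023. Fcgbp, Muc2 and Gcnt3 were chosen after their values were seen. Fcgbp, a mucus-binding protein, had 178 FPKM in BD epithelium, 1.47 in PD epithelium, 3.22 to 4.20 in BD organoids and 1.07 to 1.41 in PD organoids. For Agr2 and Fcgbp, alone of the 7 goblet genes tested, the organoid groups did not overlap, against 6.76% of all genes. Limma called 0 of the 7. Muc2, the main intestinal gel-forming mucin, was at 5.15 and 0.263 FPKM in the epithelia and 0.0239 to 0.320 in organoids. Gcnt3, which branches mucin sugars, was at 18.5 and 0.421 FPKM in the epithelia and rather higher in all organoids, at 31.5 to 85.4.

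Factors that specify secretory cells were present at different levels. Of 16 such genes, 15 passed the minimum, of which 7 were higher in BD epithelium and 0 lower, and from BD epithelium to organoids 8 were lower and 4 higher. Of the 7, Atoh1, Spdef and Creb3l4 stand in the goblet list too and were counted there. The most abundant, Xbp1, which drives the secretory apparatus, was at 91.4 and 69.9 FPKM in the epithelia and 68.6 to 179 in organoids. Sox9, a progenitor and Paneth cell factor, was at 14.7 and 6.67 FPKM in the epithelia and 39.2 to 89.4 in organoids. Atoh1, the determinant of secretory fate, was named after its values were seen. It had 64 reads (2.34 FPKM) in BD epithelium, 0 in PD epithelium, 1 and 3 reads in BD organoids 2 and 3 and 0 in the other 4 organoids. A further list held 16 cytokines, receptors and transducers of type 2, interleukin-22 and related innate signals. Of the 13 past the minimum, 2 were higher in BD epithelium and 0 lower, with a median log2 difference of 0.09 over the 16. The 2 were Il18 and Il22ra1, named after their values were seen. Il22ra1, the receptor subunit for interleukin-22, had 3.96 FPKM in BD epithelium, 0.504 in PD epithelium and 13.6 to 19.5 in organoids. Stat6, the transducer of interleukin-4 and interleukin-13, stood at 35.0 and 30.1 FPKM in the epithelia and 31.9 to 37.7 in organoids.

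Genes of other intestinal cells were set beside the members. Of 20 enterocyte genes, 19 passed the minimum, of which 15 were at least 2-fold higher in BD epithelium and 0 lower, with a median log2 difference of 2.97 over the 20. They summed to 1000.2 FPKM in BD epithelium, 97.01 in PD epithelium and 11.2 to 33.0 in organoids, where 4 to 6 of the 20 were at 0. Fabp1, the fatty acid binding protein of absorptive cells, stood at 165 and 6.79 FPKM in the epithelia, and in organoids it had 1 read in BD organoid 2 and 0 in the other 5. Of 11 enteroendocrine genes, 6 passed the minimum, of which 2 were higher in BD epithelium, with a median log2 difference of 0.19 over the 11, and all 6 were lower in BD organoids. Of 8 tuft cell genes, 6 passed the minimum, of which 4 were higher in BD epithelium and 0 lower, with a median of 0.96 over the 8, and 5 were lower in BD organoids. Over the members, the level in PD epithelium was a median 1.04% of that in BD epithelium. The median was 2.42% for 11 genes of intestinal identity, 5.21% for the mast cell and eosinophil genes above 0 in BD epithelium, 5.46% for the enterocyte genes, 9.67% for the other goblet and 11.3% for the other Paneth genes. It was 11.7% for gastric gland genes, 12.5% for tuft cell and for hepatocyte genes, 25.9% for 12 duct genes, 67.7% for enteroendocrine genes and 70.1% for the macrophage genes. The relatives had 29.8%, the secretory factors 45.4%, gallbladder and biliary genes 47.7% and the cytokine and receptor list 86.1%. Fibroblast genes stood at 99.0%, smooth muscle genes at 164%, acinar genes at 185% and islet hormone genes at 218%.

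Genes of mast cells, gastric-type glands and hepatocytes also differed between the libraries. Of 8 mast cell and eosinophil genes, 6 passed the minimum, and all 6 were higher in BD than in PD epithelium and lower in BD organoids than in BD epithelium. The list shares Siglecf with the tuft list and Cpa3 with the acinar list. The 8 summed to 20.8 FPKM in BD epithelium, 1.27 in PD epithelium and 0 to 0.747 in organoids, where 6 to 8 were at 0. Of 12 gastric gland genes, 7 passed the minimum, of which 6 were higher in BD epithelium and 0 lower, and 6 were lower in BD organoids and 0 higher. They summed to 2316 FPKM in BD epithelium, 269 in PD epithelium and 18.2 to 170 in organoids, where 3 to 6 were at 0. Tff2, the most abundant gene of this list, also leads the gallbladder and biliary list. Of the 9 genes of that list, 8 passed the minimum, of which 3 were higher and 2 lower in BD epithelium. That list summed to 1659 FPKM in BD epithelium and 477 in PD epithelium. Muc6, a mucin of deep gastric and duodenal glands, had 190 FPKM in BD epithelium, 0.615 in PD epithelium and 0.0240 to 0.424 in organoids. Of 9 hepatocyte genes, 7 passed the minimum, of which 5 were higher and 2 lower in BD epithelium, and 6 were lower in BD organoids. They summed to 219 FPKM in BD epithelium, 95.1 in PD epithelium and 8.83 to 145 in organoids, where 2 to 5 were at 0. The part of enterocytes, tuft, mast, glandular or liver cells in the members' levels was not tested.

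Genes of intestinal identity divided in culture. Of 11, 10 were higher in BD epithelium and 0 lower, with a median log2 difference of 2.63. From BD epithelium to organoids 6 of the 11 were lower and 1, Hnf4a, was higher, with a median of -1.30. From PD epithelium to organoids 5 of 7 past the minimum were higher and 0 lower, where 15.0% of all genes were higher and 25.4% lower. Those lower in BD organoids were Gpa33 (log2 difference -4.26), Hnf4g (-3.02), Isx (-2.75), Gata4 (-2.51), Cdx1 (-1.55) and Lgals4 (-1.30), of which all but Lgals4 were named after their values were seen. Cdh17, an intestinal cadherin, stood at 51.7 FPKM in BD epithelium, 0.810 in PD epithelium, 89.1, 74.7 and 91.5 in BD organoids 1 to 3 and 116, 41.8 and 47.2 in PD organoids 1 to 3. Lgals4, a gut lectin, had 252 and 6.09 FPKM in the epithelia and 76.2 to 415 in organoids. Cdx2, the intestinal homeobox factor, was named after its values were seen. It had 4.84 and 0.114 FPKM in the epithelia and 4.45 to 20.7 in organoids. Thus PD organoids held Cdh17, Lgals4 and Cdx2 well above their epithelium, while Lyz1, Defa24, Ang4, Mptx1, Mptx2, Itln1 and Retnlb had 0 reads in all 3 of them. In PD epithelium itself Lyz1 had 203 reads and Itln1 19, but Defa24, Ang4, Mptx1, Mptx2 and Retnlb had only 0 to 3. For those genes no change from PD epithelium to culture can be read.

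**Figure D4:**
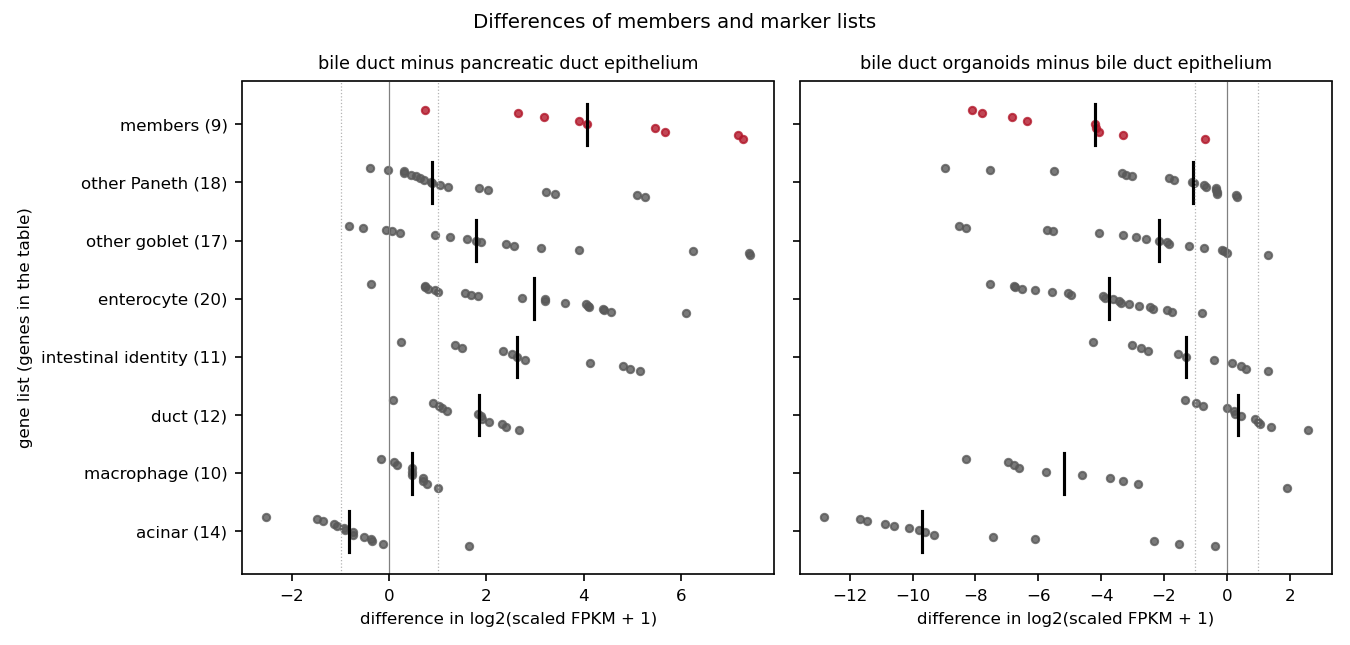
Difference in log2(scaled FPKM + 1) of each gene of the members and of 7 marker lists, with 1 point per gene, a bar at the median and dotted lines at a difference of 1 in either direction. The left panel is BD minus PD epithelium and the right panel BD organoids minus BD epithelium. In the left panel the members' median of 4.06 between the epithelia stands next to 2.97 for enterocyte genes and 2.63 for intestinal identity genes.

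The genes whose pattern over the 8 libraries was most like the mean of the members, by Pearson's r of log2 levels among 7287 genes ranked, were Apoa4, Sult1d1, Ces1f, Clca4b, Adh6a, Mep1b, Apol7c and Cps1. Their r ran from 0.999 for Apoa4 to 0.997 for Cps1. Against the mean of the 8 members without Spink4, the closest were Mep1b, Adamdec1, Prap1, Sult6b2, Clec2h, Npc1l1, Apoa4 and Apobec2, so that Apoa4 and Mep1b were in both sets. Apoa4, an apolipoprotein of absorptive cells, had 9.88 FPKM in BD epithelium, 0.285 in PD epithelium and 0 in all 6 organoids. These coefficients rest mainly on the BD epithelium library, which stands apart from the other 7, and are given as a description. Fcgbp ranked 57 and Tff3 ranked 664 (r = 0.727), or 68 and 1142 without Spink4. Among the members themselves, r lay between 0.976 and 1.00 for the 21 pairs that exclude Lyz1 and Spink4. It was 0.504 for Lyz1 with Spink4, between 0.829 and 0.925 for Lyz1 with the other 7, and between 0.729 and 0.818 for Spink4 with the other 7.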

How the data were processed

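Polyadenylated RNA was sequenced in 8 libraries, grouped by the source named in the labels. The authors deposited FPKM values in a single table of 31228 genes; the unit was read from the values. The submitters' processing notes name Bowtie2 2.2.3, HISAT2 2.1.0, TopHat2 and HTSeq 0.6.0, with no role or order. All per-sample columns were used (0 left aside). FPKM multiplied by GENCODE M21 exon length was a whole multiple of 1 step per library, within 0.05 of a read, for 28310 genes (90.7%), which gave read numbers. Retnlb came out whole with an exon length of 695 bases, 1 fewer than annotated.

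FPKM were scaled by an unweighted trimmed mean of log ratios (30% of ratios and 5% of levels trimmed) over genes with at least 1 FPKM in any library. Organoid groups were compared with limma (moderated statistics, trend fitted on mean level) on log2(scaled FPKM + 1), for genes with at least 1 scaled FPKM in 3 organoids, with Benjamini-Hochberg adjustment at 0.05, and by exact permutation. Comparisons with an epithelium have 1 library on a side, so genes at least 2-fold apart (log2 difference 1, minimum 1 scaled FPKM, all 3 organoids on 1 side) were counted with no test. A fold against a group at 0 used a floor of 3 reads over that group, and read ratios carry exact 95% intervals.

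The 9 genes and all lists were chosen with earlier results of these data known. Named are all members, up to 4 genes per list with the highest mean level, relatives reaching 1 FPKM, and the 8 genes most alike in pattern, with and without Spink4. Spdef, Creb3l4 and Siglecf are named only because lists share them. Others are marked where named. Computation used R 4.3.3, limma 3.58.1, Python 3.11.15, pandas 2.3.3, numpy 2.4.6, scipy 1.17.1 and matplotlib 3.10.9.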

Additional observations from a re-analysis of the deposited data

Results flagged for a closer look

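Spink4 and Tff3 were the genes, among the 97 examined, whose log2(scaled FPKM + 1) was at least 1 lower in every bile duct organoid than in bile duct epithelium and at least 1 higher in every pancreatic duct organoid than in pancreatic duct epithelium. Clca3b, Mmp7 and Lgals4 moved the same way in every culture, and each missed this limit in 1 of them. For Clca3b the difference was 0.76 in pancreatic duct organoid 3, at 0.771 scaled FPKM against 0.0451 in pancreatic duct epithelium, where the added 1 compresses low values. For Mmp7 it was 0.09 in pancreatic duct organoid 1, and for Lgals4 -0.48 in bile duct organoid 3. For Spink4 the log2 change was -4.16 ± 1.16 in bile duct and 2.15 ± 0.51 in pancreatic duct (SD, n = 3 each), a gap of -6.31. For Tff3 it was -4.07 ± 0.83 and 2.66 ± 1.10, a gap of -6.73. Each gap amounts to the organoid difference less the epithelial difference. Between the epithelia Spink4 differed by 5.46 and Tff3 by 7.43, bile duct minus pancreatic duct. The gaps therefore mainly restate that contrast, on which Spink4 was chosen. They were not tested, because each epithelium is 1 library. The organoid groups overlapped for both Spink4 and Tff3.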

How the results depend on the processing

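Alternatives covered deposited values, median-of-ratios scaling, the pseudocount, the filter, a replicate block and removal of single cultures. The bile duct against pancreatic duct organoid comparison called 0 genes, and 0 to 11 without 1 culture; the 11 came without pancreatic duct organoid 3. Unadjusted calls ran from 160 to 1016 across alternatives. With the replicate number as a block limma called 0 genes (288 unadjusted), and the adjusted p of Spink4 from limma was 1.00. Same-numbered cultures correlated at -0.104, -0.440 and 0.482, and other pairs at -0.597 to 0.650. With 3 cultures in a group, this cannot settle whether same-numbered cultures were paired. The Spink4 difference lay between -1.28 (without BD organoid 2) and -0.19 (without BD organoid 3). A minimum of 10 FPKM gave 614 genes higher in bile duct epithelium in place of 1398, 1586 lower in bile duct organoids in place of 4063, 1590 lower in pancreatic duct organoids in place of 3865, and 1 member lower in pancreatic duct organoids in place of 3, because fewer genes enter. Without 1 culture the counts lower in organoids ran from 4019 to 4235 and from 3790 to 4004. The scaling lowered organoids against epithelium by 0.27 (bile duct) and 0.30 (pancreatic duct) on the log2 scale. As deposited, the share of calls that were lower was 56.6% in place of 67.8% in bile duct and 51.4% in place of 62.9% in pancreatic duct. Of the values of single genes under alternatives, 129 moved by no more than the counting interval (epithelia) or the SD between cultures (organoids), 45 moved further and 0 reversed. Part of this tally was fixed in advance, so it does not measure robustness. The minimum does not enter a gene's value, and a gene at 0 in every culture cannot change when 1 is removed. Where the SD between cultures was 0, any shift counted as moved further. With a pseudocount of 0.1 the counts of members called were as before, 8, 8 and 3. Among all genes it gave 1898 higher and 1157 lower in bile duct than in pancreatic duct epithelium, in place of 1398 and 729. Depth limits Mptx1 and, in pancreatic duct epithelium, Ang4, Defa24, Mptx2 and Retnlb, which rest on 0 to 6 reads.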
